A study of Mus musculus with 18 samples.

Results

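The 10 genes described here encode the contractile and cytoskeletal proteins by which liver myofibroblasts are usually recognised. They are the smooth muscle actins Acta2 and Actg2, the thin filament proteins Tpm2, Cnn1 and Tagln, the myosin genes Myl9 and Mylk, the intermediate filament genes Des and Vim, and the surface glycoprotein gene Thy1. They were taken by name from 55536 Ensembl gene identifiers in the count files, and all 10 were found and were among the 14835 genes that passed the filter on low counts. Only Tpm2 was called different between any compared groups when all 18 libraries were used. That call was lost without a single vehicle liver, WT vehicle replicate 1, which carried skeletal muscle transcripts.

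Liver RNA came from female C57BL/6 mice, 3 in each of 6 groups, and each library is 1 mouse. Mice labelled WT, which the study's design describes as AhRfl/fl (a floxed, intact Ahr gene), were compared with AhRΔHep mice (dHep, Ahr deleted in hepatocytes) and AhRΔHSC mice (dHSC, Ahr deleted in hepatic stellate cells). Ahr encodes the aryl hydrocarbon receptor, and the drivers of both deletions are not given in the sources used here. Within each genotype, mice were gavaged with peanut oil or with TCDD, a dioxin that activates this receptor, at 100 µg/kg every 4 days, and livers were taken after 92 days. The series title asks about myofibroblast activation through the receptor in hepatocytes.

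In healthy liver, stellate cells lie quiescent beside the sinusoids and store vitamin A. On chronic injury they, and fibroblasts around the portal tracts, can turn into myofibroblasts, which assemble smooth muscle actin and myosin into contractile bundles and deposit collagen. Much of this contractile program is controlled by serum response factor (SRF) with its coactivators, which bind the CArG box in the promoters of muscle genes. The same genes are also expressed by smooth muscle cells of liver vessels and bile ducts. In RNA from a whole piece of liver, a gene's level is the product of the number of cells that express it and the RNA per cell, and fewer cells cannot be told apart from less RNA per cell.

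Total counts ran from 12706490 to 27240877 per library. The 8 hepatocyte marker genes were present in all 18 libraries, at a summed level of 47316 to 169815 CPM, which are counts scaled to the size of the library. The summed level of 12 skeletal muscle genes was 1840 CPM in WT vehicle replicate 1 and at most 4.37 CPM in the other 17 libraries. In that library the muscle creatine kinase gene Ckm stood at 177 CPM and the troponin gene Tnnt3 at 373 CPM, against at most 0.183 and 0.430 CPM elsewhere, whereas Acta1 and Tnnc2 of the same list had no counts in any library. In 5 other libraries, namely dHSC vehicle replicate 17, dHSC TCDD replicate 18, dHep TCDD replicate 16 and, with vehicle, dHep replicates 9 and 15, 2.20 to 4.25% of counts fell outside protein-coding genes, against 1.13 to 1.76% in the other 13. The share of mitochondrial counts was 8.70 to 28.4% in those 5 and 4.52 to 9.29% in the 13. Values without these libraries are given beside the results or with the effects of processing.

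The promoters of 4 of the 10 genes are shown because Acta2, Myl9 and Des varied together between livers, as described further on, and Tpm2 carried the 1 call. RefSeq promoter windows on GRCm38.p6 were matched for 7 of the 10 genes, by symbol. Tagln, Actg2 and Thy1 had no entry. Each window runs from 250 bases before to 50 bases after the annotated start site, and the 250 bases before it are printed 5′ to 3′ on the gene's strand. Capitals mark CArG boxes, here CC and GG around 6 letters that are A or T, with at most 1 of the 6 replaced by G or C.
Acta2, chr19:34255374-34255623 (minus strand): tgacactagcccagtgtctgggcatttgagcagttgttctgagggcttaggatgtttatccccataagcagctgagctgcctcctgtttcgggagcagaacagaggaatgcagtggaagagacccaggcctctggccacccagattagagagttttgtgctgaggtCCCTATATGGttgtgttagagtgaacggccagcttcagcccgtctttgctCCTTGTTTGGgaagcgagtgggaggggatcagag
Myl9, chr2:156775214-156775463 (plus strand): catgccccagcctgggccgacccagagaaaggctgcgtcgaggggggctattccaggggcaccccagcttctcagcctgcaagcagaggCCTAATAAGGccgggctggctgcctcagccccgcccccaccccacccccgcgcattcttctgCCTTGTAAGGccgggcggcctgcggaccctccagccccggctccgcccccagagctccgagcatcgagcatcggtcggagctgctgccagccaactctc
Des, chr1:75360042-75360291 (plus strand): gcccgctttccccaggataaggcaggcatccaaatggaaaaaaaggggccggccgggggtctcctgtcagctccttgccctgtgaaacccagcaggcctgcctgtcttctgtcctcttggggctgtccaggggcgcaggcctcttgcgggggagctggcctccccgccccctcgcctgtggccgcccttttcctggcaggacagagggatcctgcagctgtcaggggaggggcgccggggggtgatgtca
Tpm2, chr4:43523555-43523804 (minus strand): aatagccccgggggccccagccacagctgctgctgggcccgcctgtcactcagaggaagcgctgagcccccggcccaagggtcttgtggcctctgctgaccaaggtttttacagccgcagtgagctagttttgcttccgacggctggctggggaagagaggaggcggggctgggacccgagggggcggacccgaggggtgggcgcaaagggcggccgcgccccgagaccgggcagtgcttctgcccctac

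The Acta2 promoter held 2 boxes with 1 replaced letter, CCCTATATGG at -84 and CCTTGTTTGG at -34 from the annotated start. In the Myl9 promoter, CCTAATAAGG at -161 matched without replacement and CCTTGTAAGG at -99 with 1 replaced letter. Because a CArG box read on the opposite strand is again CC and GG around A and T, both strands were covered. The windows of Des, Tpm2, Vim, Cnn1 and Mylk held no such match, which says only that these letters are absent from the 300 bases. Over 32841 windows of the same length, 1.63% held a box without replacement and 9.98% a box with at most 1 replaced letter. The core of the receptor's own DNA element, GCGTG or CACGC on the opposite strand, was found in the Cnn1 window, at -71, and in 32.4% of all windows.

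Acta2 (ENSMUSG00000035783, chromosome 19, 34241090 to 34255590 on GRCm38), the α-smooth muscle actin by which myofibroblasts are stained, varied more within groups than between them. In WT mice it measured 31.6, 7.01 and 3.27 CPM with vehicle (replicates 1, 7 and 13) and 3.98, 4.39 and 9.26 CPM with TCDD (replicates 2, 8 and 14). In dHep mice it was at 1.42, 83.8 and 6.79 CPM with vehicle (replicates 3, 9 and 15) and 13.8, 3.26 and 28.4 CPM with TCDD (replicates 4, 10 and 16). In dHSC mice the values were 3.44, 6.26 and 5.28 CPM with vehicle (replicates 5, 11 and 17) and 4.87, 3.56 and 11.3 CPM with TCDD (replicates 6, 12 and 18). The highest livers of all were a dHep vehicle and a WT vehicle liver, and TCDD and vehicle values overlapped in each genotype. Library order is the same for the values that follow.

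By group, mean Acta2 fell in the order dHep vehicle (30.7 ± 46.1 CPM, SD, n = 3), dHep TCDD (15.1 ± 12.6), WT vehicle (13.95 ± 15.4), dHSC TCDD (6.58 ± 4.15), WT TCDD (5.88 ± 2.94) and dHSC vehicle (4.99 ± 1.43). No neighbours in that order differed by more than the larger of their SDs. Without replicate 1 the WT vehicle mean was 5.14 ± 2.64 CPM (n = 2), which lies between dHSC vehicle and WT TCDD. Within dHep vehicle the highest liver held 58.9 times the level of the lowest.

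**Figure D1:**
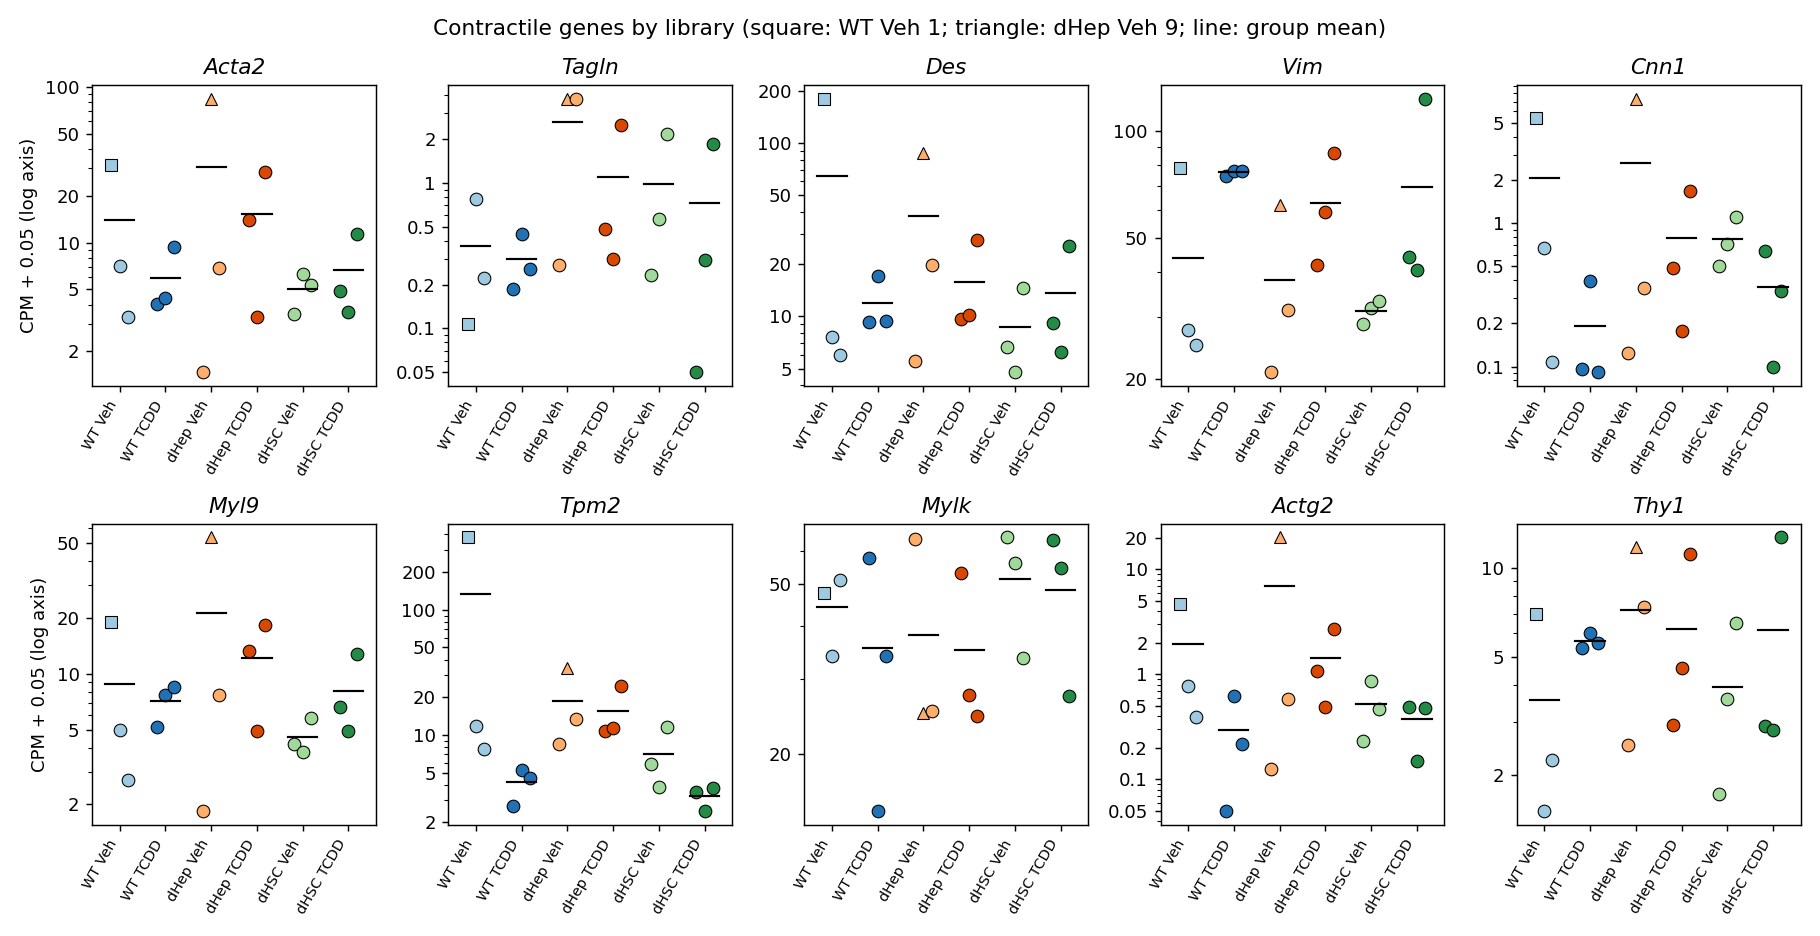
Level of each of the 10 genes in each of the 18 livers, in CPM plus 0.05 on a log axis, by group. Points are livers, the square is WT vehicle replicate 1, the triangle is dHep vehicle replicate 9, and lines are group means. Tpm2 stands at 379 CPM in the square, and Acta2 at 83.8 CPM in the triangle, while Vim lies between 74.5 and 77.2 CPM in the 3 WT TCDD livers.

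Neither actin gene passed the test for a TCDD response in WT livers. In edgeR's quasi-likelihood test (Benjamini-Hochberg adjusted over all genes), Acta2 differed between WT TCDD and WT vehicle by -1.24 ± 1.10 on the log2 scale (SE, 95% interval -3.57 to 1.09, adjusted p = 0.715). Without WT vehicle replicate 1 the difference was 0.19 ± 1.15 (adjusted p = 0.985). Actg2 (ENSMUSG00000059430, chromosome 6, 83512905 to 83536265), the γ-actin of enteric smooth muscle, was sparse, with 81, 13 and 6 counts in the WT vehicle libraries and 0, 10 and 4 in the WT TCDD libraries. Its log2 difference was -2.98 ± 1.57 (adjusted p = 0.376), and -1.18 ± 1.66 without replicate 1 (adjusted p = 0.860).

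Tpm2 (ENSMUSG00000028464, chromosome 4, 43514711 to 43523765), which encodes the β-tropomyosin of skeletal and smooth muscle, was the 1 of 10 genes called in the WT response, and it fell. Over all genes 5.38% were called in this comparison, 1.95% as lower. Tpm2 measured 379, 11.7 and 7.63 CPM in the WT vehicle livers and 2.66, 5.24 and 4.51 CPM in the WT TCDD livers, so every TCDD liver lay below every vehicle liver. The share of all genes with no overlap between groups was not counted, so here and below such a separation is only a description. The log2 difference of Tpm2 was -5.00 ± 1.17 (95% interval -7.49 to -2.52, adjusted p = 0.0180), a level 0.0312 times that of vehicle. Without the liver that carried muscle transcripts the difference was -1.23 ± 0.58 and missed the threshold (adjusted p = 0.269).

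The Tpm2 call depended on other livers too. It was lost when WT TCDD replicate 2 (adjusted p = 0.0949), replicate 8 (0.0602) or replicate 14 (0.0813) was left out, and in a fit of the WT groups alone (adjusted p = 0.108). DESeq2 gave no adjusted p for Tpm2. Without 6 libraries, namely replicate 1 and the 5 that stand apart, Tpm2 was called lower, by -1.22 ± 0.34 (adjusted p = 0.0355). In that fit 15% of all genes were called. None of the 5 is a WT liver, so leaving them out lowers the spread pooled over groups and keeps the same WT livers. The fit was chosen after seeing the data, so its call is no independent evidence.

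The other thin filament genes were near the limit of detection. Cnn1 (ENSMUSG00000001349, chromosome 9, 22099216 to 22109630), which encodes calponin 1, an inhibitor of myosin ATPase in smooth muscle, had 94, 11 and 1 counts in the WT vehicle libraries and 1, 6 and 1 in the WT TCDD libraries. Its log2 difference of -3.84 ± 1.65 (unadjusted p = 0.0331, adjusted p = 0.234) became -1.29 ± 1.66 without replicate 1 (adjusted p = 0.835). Tagln (ENSMUSG00000032085, chromosome 9, 45929619 to 45936058), the actin-bundling transgelin or SM22, had 1, 13 and 3 counts with vehicle and 3, 7 and 5 with TCDD. Of its exon bases, 67.9% lie under Pcsk7 and Gm48529 on the opposite strand. In these files all 1287 protein-coding genes that lie wholly inside another gene had no counts, against 24.8% of the 11728 clear of others, so reads of Tagln over those bases may be uncounted, and its level is not compared with that of other genes.

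The myosin genes did not pass the test in WT mice either. Myl9 (ENSMUSG00000067818, chromosome 2, 156775420 to 156781658), the regulatory light chain whose phosphorylation starts smooth muscle contraction, measured 18.9, 4.93 and 2.64 CPM with vehicle and 5.17, 7.69 and 8.43 CPM with TCDD. The muscle-bearing liver was the highest of the 6, and without it all 3 TCDD livers lay above the other vehicle livers. The log2 difference was -0.31 ± 0.89 with replicate 1 (adjusted p = 0.951) and 0.90 ± 0.95 without it (adjusted p = 0.760). Mylk (ENSMUSG00000022836, chromosome 16, 34745210 to 35002420), the kinase that phosphorylates this light chain, was at 47.7, 33.8 and 51.3 CPM with vehicle and 57.7, 14.7 and 33.9 CPM with TCDD. Its difference was -0.32 ± 0.50 (adjusted p = 0.895) with replicate 1 and -0.27 ± 0.58 (adjusted p = 0.935) without it, and 24.7% of its exon bases lie under genes on the opposite strand.

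Des (ENSMUSG00000026208, chromosome 1, 75360329 to 75368579) encodes desmin, the muscle intermediate filament that also marks rodent stellate cells. It measured 180, 7.57 and 5.91 CPM in the WT vehicle livers and 9.20, 17.1 and 9.38 CPM in the WT TCDD livers. With the muscle-bearing liver the log2 difference was -2.44 ± 1.14 (unadjusted p = 0.0481, adjusted p = 0.293), and without it 0.81 ± 0.90 (adjusted p = 0.784). The sign of the desmin difference thus turned with 1 liver, and both values missed the threshold. Its exon bases are 9.8% covered by an antisense gene.

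Vim (ENSMUSG00000026728, chromosome 2, 13573927 to 13582826), the vimentin filament of mesenchymal cells and leukocytes, gave the tightest values of the set in WT TCDD livers. It stood at 74.5, 77.2 and 77.0 CPM there, and at 78.6, 27.4 and 25.0 CPM in the WT vehicle livers. The vehicle liver with muscle transcripts was as high as the TCDD livers, and the other vehicle livers were far below. With all libraries the log2 difference was 0.80 ± 0.50 (adjusted p = 0.500). Without replicate 1 it was 1.53 ± 0.50 (adjusted p = 0.0889), and without the 6 libraries 1.55 ± 0.20 (adjusted p = 0.000904). None of the further libraries left out is a WT liver, so the SE pooled over groups fell while the difference hardly moved. That fit was chosen after seeing the data, so its call is no independent evidence.

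Thy1 (ENSMUSG00000032011, chromosome 9, 44043384 to 44048579), a surface marker of portal fibroblasts and, in mice, of T cells, followed a like course. It measured 6.94, 1.46 and 2.18 CPM with vehicle and 5.31, 5.98 and 5.50 CPM with TCDD. Its log2 difference was 0.67 ± 0.75 (adjusted p = 0.815) with all libraries, 1.61 ± 0.82 (adjusted p = 0.326) without replicate 1 and 1.62 ± 0.38 (adjusted p = 0.0182) without the 6 libraries. In each of the 3 fits the TCDD mean was the higher, though the fits without replicate 1 and without the 6 libraries use the same WT livers. The call of Thy1 has the same limit as that of Vim.

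Vim and Thy1 are also expressed by leukocytes, whose markers were measured in the same livers. The summed level of 10 T cell genes was 4.88 to 12.2 CPM in WT vehicle and 16.2 to 18.5 CPM in WT TCDD livers, with 0 of 9 tested called, where 5.38% of all genes were called. That of 10 macrophage genes was 183 to 496 CPM and 517 to 828 CPM in the same groups, with Csf1r, Gpnmb, Itgax and Trem2 called higher, where 3.43% of all genes were called higher. Without Gpnmb, which was at 0.168 to 2.24 CPM with vehicle and 53.4 to 173 CPM with TCDD, the macrophage sums overlapped, at 182 to 495 CPM and 463 to 696 CPM. The 10 portal fibroblast and mesothelial genes summed to 18.4 to 75.4 CPM in WT vehicle, highest in replicate 1, and 29.4 to 52.2 CPM in WT TCDD, with none of 10 called. At a share of 5.38% over all genes, a count of 0 in lists this short says little about the cell types. The part of these cells in the Vim and Thy1 values was not tested.

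Over the 10 genes the WT response was counted as 1 called lower and 0 called higher, where 1.95% of all genes were called lower and 3.43% higher. Of the 10, 3 had an unadjusted p under 0.05, and the median log2 difference was -0.82 against -0.02 over all genes. Without replicate 1, 0 of 10 were called by the same test, where 6.03% of all genes were called, 2 had an unadjusted p under 0.05, and 5 of 10 values were positive around a median of -0.04. Without the 6 libraries, 9 of the 10 were tested and 3 were called, where 15% of all genes were called: Vim and Thy1 higher and Tpm2 lower. That fit was chosen after seeing the data and uses the same WT livers as the fit without replicate 1, so these calls are no independent evidence. The smooth muscle and pericyte list (9 genes, of which Rgs5 also marks stellate cells) summed to 190 CPM in WT vehicle replicate 1, 94.0 CPM in dHep vehicle replicate 9 and 43.2 to 80.9 CPM in the other 16 libraries. Of that list Kcnmb1 and Pln had no counts in any library, which in these files need not mean that they are not expressed.

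**Figure D2:**
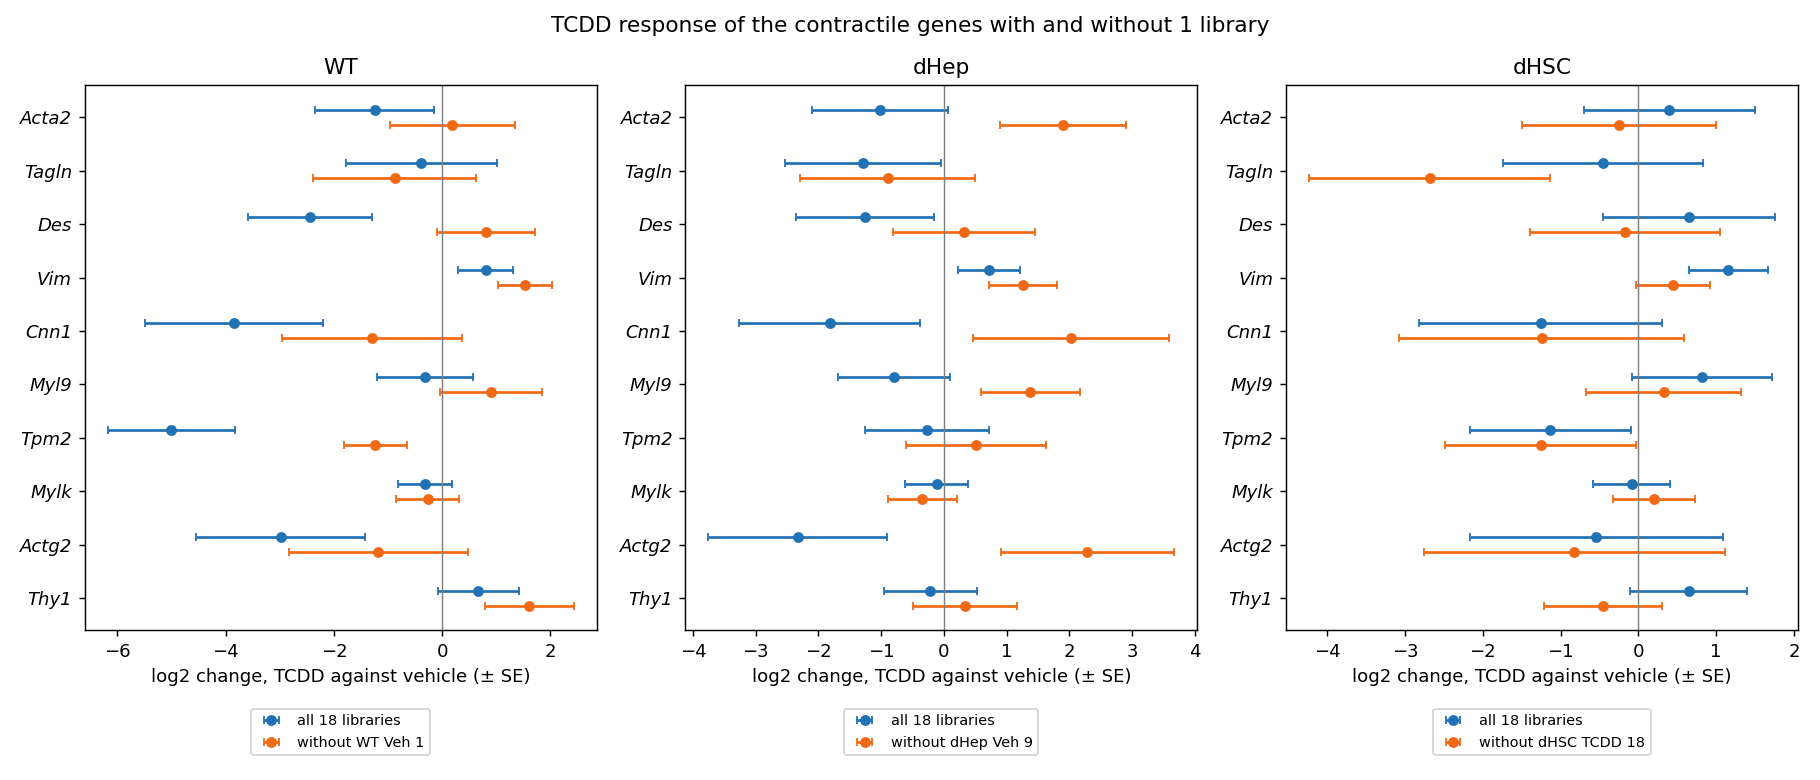
Log2 difference between TCDD and vehicle livers (points) with its SE (bars) for each gene in WT, dHep and dHSC mice, from all 18 libraries (blue) and without 1 library (orange: WT vehicle replicate 1, dHep vehicle replicate 9 or dHSC TCDD replicate 18). In WT, Tpm2 moves from -5.00 to -1.23 and Des from -2.44 to 0.81; in dHep, Acta2 moves from -1.02 to 1.90.

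In dHep livers, which lack the receptor in hepatocytes, none of the 10 genes was called with TCDD by edgeR's quasi-likelihood test, where 0.0674% of all genes were called. DESeq2 also called none of the 9 it tested, and 0 of 10 had an unadjusted p under 0.05. Of the 10 values, 9 were negative, with a median log2 difference of -0.91, and the exception was Vim, at 0.72 ± 0.50 (adjusted p = 0.827). These signs followed a single vehicle liver, dHep vehicle replicate 9, which was the highest of all 18 for Acta2, Actg2, Cnn1 and Myl9.

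Actg2 had 339 counts in dHep vehicle replicate 9 (20.2 CPM) and 2 and 7 counts in replicates 3 and 15, against 24, 7 and 39 counts in the dHep TCDD libraries. Myl9 measured 1.80, 53.7 and 7.62 CPM in the dHep vehicle livers and 13.2, 4.90 and 18.2 CPM with TCDD. Des was at 5.50, 87.6 and 19.8 CPM with vehicle and 9.61, 10.1 and 27.6 CPM with TCDD. In all 3 genes replicate 9 was far above the other 5 dHep livers. That liver also had the smooth muscle myosin gene Myh11 at 43.3 CPM, against a median of 4.19 CPM over the 18 libraries, and the bile duct keratin Krt19 at 69.8 CPM, against a median of 3.07 CPM. Not all smooth muscle and pericyte genes followed. Lmod1, Mustn1 and Cspg4 were above their medians, but Rgs5 (20.3 against 38.2 CPM), Notch3 (0.892 against 1.38) and Mcam (6.96 against 8.04) were below. Of the bile duct genes Krt7, Epcam, Sox9 and Cftr were above their medians and Spp1 (79.9 against 87.3 CPM) below. The skeletal muscle list of that liver summed to 3.75 CPM.

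The remaining genes of the set overlapped between treatments in dHep mice as well. Vim measured 20.9, 61.6 and 31.2 CPM with vehicle and 41.8, 59.0 and 86.3 CPM with TCDD, and replicate 9 again held the highest vehicle value. Thy1 was at 2.47, 11.7 and 7.32 CPM with vehicle and 2.90, 4.52 and 11.1 CPM with TCDD (log2 difference -0.22 ± 0.74, adjusted p = 0.971). Mylk was at 63.9, 25.0 and 25.2 CPM with vehicle and 53.2, 27.6 and 24.5 CPM with TCDD (-0.12 ± 0.50, adjusted p = 0.976). Of the 6 dHep livers Mylk was highest in replicate 3, in which Acta2 was the lowest of all 18 livers. Cnn1 had 2, 123 and 4 counts with vehicle and 10, 2 and 24 with TCDD, and Tagln 6, 63 and 49 counts with vehicle and 10, 4 and 36 with TCDD.

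Without dHep vehicle replicate 9, 8 of the 10 dHep values were positive and the median log2 difference was 0.88. Acta2 stood at 1.90 (SE 1.0015), Actg2 at 2.29 ± 1.38, Myl9 at 1.38 ± 0.79 and Vim at 1.26 ± 0.54, and each had an adjusted p of 1.0, where 0.0726% of all genes were called and 1 of the 10 had an unadjusted p under 0.05. Tpm2 stayed near vehicle in both fits, at -0.27 ± 0.99 with replicate 9 and 0.51 ± 1.11 without it. Both sets of signs came without a call.

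In dHSC livers, which lack the receptor in stellate cells, 0 of 10 genes were called with TCDD, where 2.55% of all genes were called. Vim alone had an unadjusted p under 0.05, and DESeq2 called none of 9. Vim measured 28.5, 31.6 and 33.1 CPM with vehicle and 44.1, 40.6 and 123 CPM with TCDD, so every TCDD liver lay above every vehicle liver. How many of all genes separated in this way was not counted. The log2 difference of Vim was 1.16 ± 0.51 (unadjusted p = 0.0362, adjusted p = 0.351). It fell to 0.45 ± 0.47 (adjusted p = 0.854) without dHSC TCDD replicate 18, the liver with 28.4% mitochondrial counts.

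Tpm2 in dHSC mice measured 5.79, 3.76 and 11.5 CPM with vehicle and 3.47, 2.42 and 3.73 CPM with TCDD. All 3 TCDD livers lay below the vehicle livers, again with no count over all genes, and the log2 difference was -1.13 ± 1.04 (adjusted p = 0.812). Thy1 was at 1.67, 3.54 and 6.47 CPM with vehicle and 2.88, 2.77 and 12.6 CPM with TCDD, with a difference of 0.65 ± 0.75 that became -0.46 ± 0.76 without replicate 18. The 10 T cell genes summed to 39.9 CPM in that liver and to 12.98 and 9.29 CPM in the other dHSC TCDD livers. Of the 10 values 5 were positive with all libraries and 3 without replicate 18.

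Acta2 ranged from 3.44 to 11.3 CPM over the 6 dHSC livers and from 1.42 to 83.8 CPM over the 6 dHep livers. Myl9 measured 4.16, 3.76 and 5.77 CPM with vehicle and 6.57, 4.89 and 12.7 CPM with TCDD, a log2 difference of 0.82 ± 0.90 (adjusted p = 0.870). Des was at 6.61, 4.71 and 14.5 CPM with vehicle and 9.15, 6.18 and 25.3 CPM with TCDD (0.65 ± 1.10, adjusted p = 0.961). For Acta2 the difference between treatments in dHSC mice was 0.40 ± 1.10 (95% interval -1.94 to 2.74, adjusted p = 0.987). In both treatments the libraries that stand apart, replicates 17 and 18, held the highest Des and Myl9. Mylk went the other way, with 64.4, 56.1 and 33.5 CPM with vehicle and 63.5, 54.6 and 27.3 CPM with TCDD, lowest in those replicates. Cnn1 had 10, 9 and 15 counts with vehicle and 8, 1 and 4 with TCDD, and Actg2 4, 11 and 6 with vehicle and 6, 2 and 6 with TCDD.

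Differences between genotypes in the TCDD response were tested directly, with the WT livers shared by both tests. Against WT, 0 of 10 genes were called for dHep, where 0.856% of all genes were called, and 0 of 10 for dHSC, where 0% were called. In each test 1 gene, Tpm2, had an unadjusted p under 0.05, and DESeq2 called none of 9. The Tpm2 response was higher in dHep than in WT by 4.73 ± 1.47 on the log2 scale (adjusted p = 0.235) and higher in dHSC than in WT by 3.87 ± 1.48 (adjusted p = 1.0). Without WT vehicle replicate 1 these differences were 0.97 ± 0.78 (adjusted p = 0.778) and 0.09 ± 0.79 (adjusted p = 1.0).

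For Acta2 the response difference between dHep and WT was 0.23 ± 1.52 (95% interval -3.00 to 3.46), and between dHSC and WT 1.64 ± 1.55 (-1.65 to 4.94). For Vim the same differences were -0.08 ± 0.70 (-1.58 to 1.41) and 0.35 ± 0.71 (-1.14 to 1.85). These intervals include no difference and also differences of more than 2-fold either way, so the spread between 3 livers a group did not settle whether the genotypes respond alike. Without WT vehicle replicate 1 the Acta2 differences were -1.197 ± 1.54 for dHep and 0.19 ± 1.54 for dHSC, and those of Vim -0.81 ± 0.64 and -0.40 ± 0.64. The other 7 genes ranged from -0.91 (Tagln) to 2.02 (Cnn1) for dHep and from -0.07 (Tagln) to 3.09 (Des) for dHSC. Both upper ends rested on that liver, since without it Cnn1 was at -0.51 ± 2.34 for dHep and Des at -0.17 ± 1.18 for dHSC.

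Among vehicle livers, no gene of the set was called between genotypes, and 0% of all genes were called for either deletion. Unadjusted p was under 0.05 for Tagln and Tpm2 in dHep and for Des and Tpm2 in dHSC, and DESeq2 called none of 9 in both comparisons. Tpm2 differed from WT by -2.83 ± 1.05 in dHep (adjusted p = 0.623) and by -4.24 ± 1.13 in dHSC (adjusted p = 1.0). Without WT vehicle replicate 1 these became 0.93 ± 0.60 and -0.47 ± 0.58. Des in dHSC went from -2.91 ± 1.17 to 0.35 ± 0.89 in the same way, and Acta2 was at 1.14 ± 1.09 in dHep and -1.49 ± 1.11 in dHSC. Without WT vehicle replicate 1 Acta2 was at 2.55 ± 1.26 in dHep (adjusted p = 0.724) and -0.05 ± 1.15 in dHSC (adjusted p = 1.0). Leaving out the 5 libraries that stand apart leaves a single dHep vehicle liver, replicate 3, which has the lowest Acta2 of the series. The dHep difference was then -3.29.

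The Tagln difference between dHep and WT vehicle livers was 2.96 ± 1.35 (unadjusted p = 0.0443, adjusted p = 0.623). It had 6, 63 and 49 counts in the dHep vehicle libraries. Replicates 9 and 15 belong to the 5 libraries that stand apart, and across the whole series Tagln followed that division. It measured 1.79 to 3.75 CPM in the 5 and 0 to 0.729 CPM in the other 13, with no overlap. The 5 are dHep and dHSC livers of both treatments and none is a WT liver. Thy1 was at 6.47 to 12.6 CPM in the 5 and 1.46 to 6.94 CPM in the 13, whereas Mylk was at 24.5 to 33.5 CPM in the 5 and 14.7 to 64.4 CPM in the 13. These divisions were seen in the data and were not tested. How many of all genes divide the livers in the same way was not counted, so the division is not read as particular to Tagln.

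Among TCDD livers, 0 of 10 genes were called between dHep and WT, where 1.94% of all genes were called, and 0 of 10 between dHSC and WT, where 0% were called. No gene of the set had an unadjusted p under 0.05 in either comparison, and DESeq2 called none of 9. Tpm2 measured 10.8, 11.2 and 24.5 CPM in dHep TCDD livers, all above the 2.66 to 5.24 CPM of WT TCDD livers, and the log2 difference was 1.91 ± 1.04 (adjusted p = 0.651). Separations of this kind were not counted over all genes. The spread was estimated over all groups. WT vehicle replicate 1 and dHep vehicle replicate 9 are in neither compared group and held the highest Tpm2, at 379 and 34.3 CPM. Leaving them out was chosen after seeing the data and lowers the spread of Tpm2, so a call made this way is no independent evidence. The same difference then had a smaller SE and was called, at 1.91 ± 0.46 (adjusted p = 0.0456, 2.31% of all genes called). Without the 6 libraries it was 1.41 ± 0.34 (adjusted p = 0.0476, 3.65% of all genes called). For Acta2 the differences from WT were 1.36 ± 1.10 in dHep and 0.16 ± 1.09 in dHSC, and for Vim -0.29 ± 0.50 and -0.14 ± 0.50.

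Levels of different genes were compared only per kilobase of exon, in WT vehicle livers without replicate 1. Vim was highest, at 5.52 CPM per kilobase, followed by Mylk (3.78), Tpm2 (3.33), Myl9 (3.26), Acta2 (2.34), Des (1.80), Thy1 (0.607), Actg2 (0.345) and Cnn1 (0.123). In the library with muscle transcripts the order was led by Tpm2. The values of Mylk and Des are affected by the overlaps given above.

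Acta2, Actg2, Cnn1, Myl9 and Des varied together from liver to liver. Over 18 libraries, Pearson's r of log2 CPM for their 10 pairs ran from 0.737 to 0.950, the highest being Acta2 with Myl9. These correlations share libraries, sequencing depth and, in part, cell content, and are given as a description. For Acta2 with Myl9, r was 0.947 without WT vehicle replicate 1 and 0.830 over 12 libraries without that one and the 5 that stand apart. Across those 12 libraries the other pairs fell as low as 0.051. Vim went with Thy1 (r = 0.753 over 18 and 0.873 over 12 libraries), and all 9 correlations of Mylk with the other genes were negative (-0.636 to -0.185).

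The genes outside the set whose levels were most like Acta2 over the 17 libraries without WT vehicle replicate 1, among 11745 compared, were Jph2 (r = 0.886), which encodes a junctophilin of muscle cells, Myh11 (0.874), the smooth muscle myosin heavy chain, and Lmod1 (0.824), the smooth muscle leiomodin, then Arhgef39 (0.812) and Crip1 (0.779). After group means over all 18 libraries were subtracted, r over the 17 was 0.924 for Myh11 and 0.747 to 0.880 for the other named genes. The WT vehicle mean thus included replicate 1, so the remaining WT vehicle livers can share an offset that raises r. Likeness to Acta2 within groups alone was not measured. Most like Vim were Gpx3 (0.982), Cacnb3 (0.974), Rasgrp4 (0.950) and Lgals3 (0.946), of which Lgals3 encodes the macrophage lectin galectin-3. Most like Thy1 were Nupr1 (0.960), Clic1 (0.954), Ebf1 (0.947) and Emp3 (0.945).

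**Figure D3:**
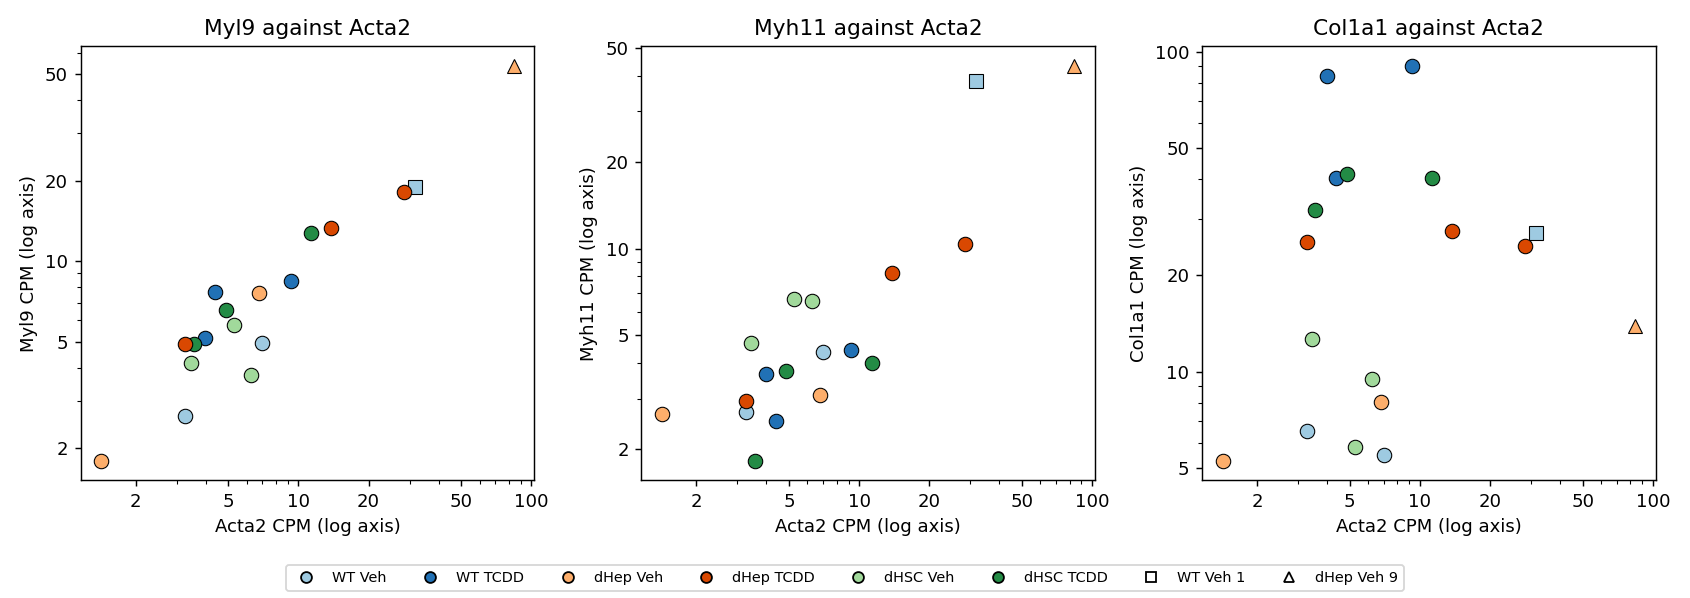
Myl9, Myh11 and Col1a1 against Acta2 in 18 livers, in CPM on log axes, coloured by group, with WT vehicle replicate 1 as a square and dHep vehicle replicate 9 as a triangle. Myl9 rises along with Acta2 (r = 0.950), and so does Myh11 (r = 0.878), while the 3 WT TCDD livers hold Col1a1 at 40.3 to 90.4 CPM with Acta2 at 3.98 to 9.26 CPM.

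Other genes of activated stellate cells and scar were called in the WT livers. Of a list of 20 activated stellate and scar genes, 18 were tested and 7 rose with TCDD, where 3.43% of all genes were called higher, with a median log2 difference of 1.16 against -0.02 over all genes. Col1a1, the main fibrillar collagen chain of scar, measured 27.1, 5.49 and 6.54 CPM with vehicle and 84.0, 40.3 and 90.4 CPM with TCDD (log2 difference 2.46 ± 0.54, adjusted p = 0.0128). Tgfb2, a ligand that drives matrix production, rose by 3.43 ± 0.57 (adjusted p = 0.00161), Lox, a collagen crosslinker, by 2.46 ± 0.58 (adjusted p = 0.0179) and Spp1, which encodes osteopontin, by 2.09 ± 0.39 (adjusted p = 0.00475). The others called were Col3a1, Tgfb1 and Sparc. These values include WT vehicle replicate 1, the highest of the vehicle livers for Col1a1. The calls of this list without that liver are not given. The members of this list and the 10 contractile genes were both chosen with earlier results of these livers known.

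Of the smooth muscle contractile apparatus (24 genes, 21 tested), 1 gene was called in the WT response, where 5.38% of all genes were called. It was Cnn2, a calponin also found outside muscle, which rose from 9.61 ± 2.28 to 24.8 ± 0.487 CPM, by 1.36 ± 0.31 (adjusted p = 0.0154), and the median of the list was -0.16. These values include WT vehicle replicate 1, where Tpm1 stood at 294 CPM and Synpo2 at 34.1 CPM. In the other WT vehicle livers Tpm1 was at 40.8 and 34.7 CPM and Synpo2 at 1.06 and 1.38 CPM. The WT TCDD livers held Tpm1 at 92.6 to 104 CPM and Synpo2 at 0.513 to 1.88 CPM. The calls of this list without that liver are not given. None of 11 tested genes of SRF and its coactivators (median 0.35) and none of 7 tested genes of intermediate filaments and keratins (median 0.65) was called. Srf itself had no counts in any library, and neither had Acta1 and Actc1. Acta1, a skeletal muscle gene, had none even in the liver with muscle transcripts. In these files an absence of counts thus need not mean that a gene is not expressed.

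**Figure D4:**
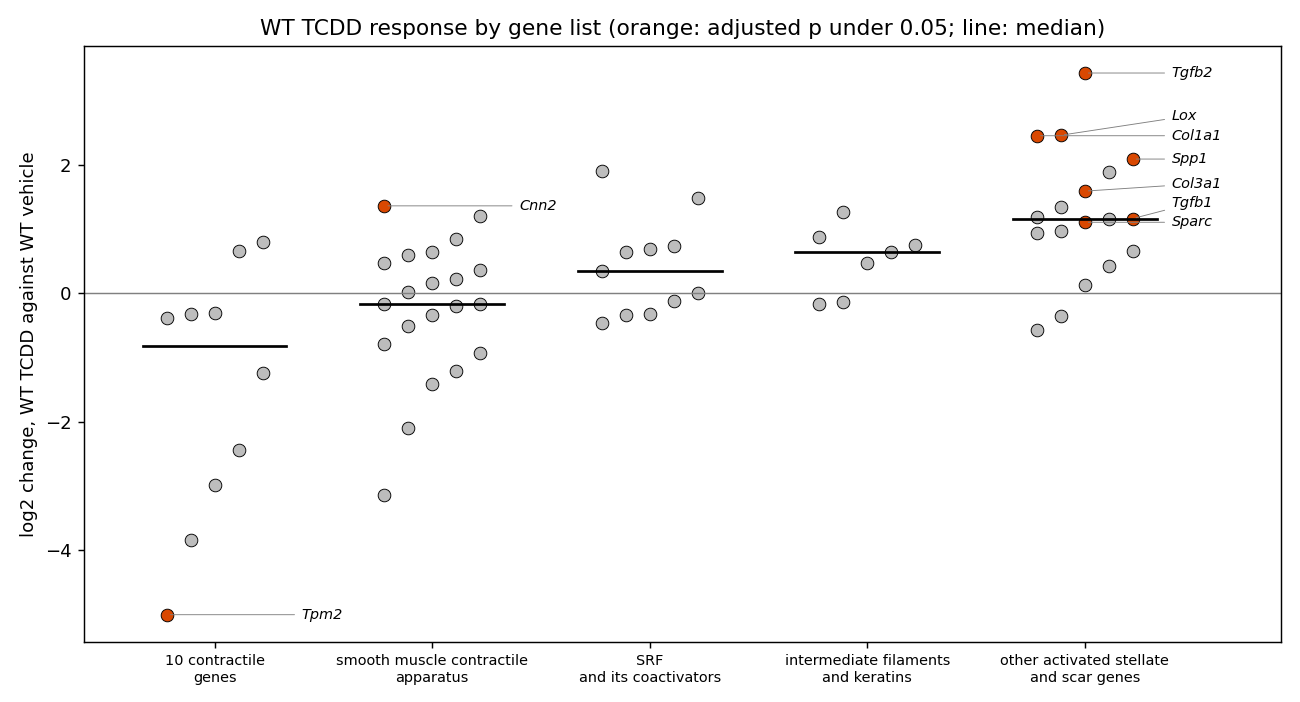
Log2 difference between WT TCDD and WT vehicle livers for each tested gene (points) of the 10 contractile genes and 4 related lists, from all 18 libraries, with called genes in orange and each list's median as a line. The scar list has 7 called genes and a median of 1.16, and the contractile genes have a median of -0.82 with Tpm2 called at -5.00. Without WT vehicle replicate 1, which is not shown here, the contractile median was -0.04 and Tpm2 stood at -1.23, not called. The other lists are not given without that liver.

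With the receptor deleted in hepatocytes, none of these 4 lists held a called gene in the TCDD response, where 0.0674% of all genes were called. The median of the scar list there was 0.75. With it deleted in stellate cells Tgfb2 rose by 3.10 ± 0.56 (adjusted p = 0.00586), and no other gene of the 4 lists was called, where 2.55% of all genes were. Among TCDD livers, dHep differed from WT in 3 genes of the lists, where 1.94% of all genes were called. Tgfb2 was lower by -2.16 ± 0.53 (adjusted p = 0.0468) and Postn, which encodes the matrix protein periostin, by -1.35 ± 0.32 (adjusted p = 0.0365), while Csrp2, a LIM protein of smooth muscle and stellate cells, was higher by 1.52 ± 0.37 (adjusted p = 0.0462). Csrp2 was at 21.7 ± 5.81 CPM in WT TCDD and 62.3 ± 14.5 CPM in dHep TCDD livers. The other 5 comparisons called no gene of the 4 lists, by the same edgeR test.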

How the data were processed

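Liver RNA of 18 mice was measured by poly-T selected RNA-seq, with libraries made by a NEBNext Ultra kit per the labels' protocols. The deposited files hold unnormalised read counts per Ensembl gene made by the authors. Per the submitters' processing notes they used HISAT2 2.1.0 on GRCm38, HTSeq 0.11.3, DESeq2 1.22.2 and FastQC 0.11.9; counting settings are not given in the sources used here. Gene names and positions came from GENCODE M21.

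Here the counts were filtered by filterByExpr, scaled by TMM and fitted in edgeR 4.0.16 (R 4.3.3) with 1 mean for each of 6 groups over 18 libraries. The 9 comparisons used its quasi-likelihood test, adjusted by Benjamini-Hochberg over 14835 genes, called at an adjusted p under 0.05. CPM are TMM-scaled, and means are given ± SD. Correlations used log2 CPM with a prior count of 2. The fit was run on simulated counts with the same spread for all genes and no divergent livers. That run therefore did not test how it handles livers such as those that stand apart. Totals per library limit low genes, and precision is set by 3 mice a group; the labels do not say whether livers were processed together. No replicate pair was identical.

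All 10 genes were named in every comparison, with up to 4 called genes for each related list and comparison, and the 6 genes most like Acta2 and 4 each most like Vim and Thy1; 1 gene most like Acta2 and 1 related list are not reported here. The members and lists were chosen with earlier results of these data known. Alternatives were RLE scaling, other filters, a fit of only the compared groups, DESeq2 1.42.0, leaving out each library in turn and leaving out the 5 libraries that stand apart. Fits without 6 libraries and without 2 libraries were chosen after seeing the data.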

Additional observations from a re-analysis of the deposited data

How the results depend on the processing

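With 3 mice a group, and with several smooth muscle genes set by 1 or a few livers, small differences could not be resolved at this depth and spread. Leaving out each library in turn tests each value on the remaining livers, and where it leaves 2 livers in a group the fit pools the spread of all groups. No paired analysis was possible because the mouse numbers 1 to 18 are each used in 1 group only, and the labels name no litter, batch or day that mice share. DESeq2 gave no adjusted p for Tpm2, so no DESeq2 count is given for the WT response.

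The count of called genes in the WT response was 1 of 10 with all libraries, where 5.38% of all genes were called. It was 0 in a fit of only the compared groups (5.47% of all genes) and 0 to 1 over the fits that left out 1 library (2.91 to 6.03%). It was 3 of 9 tested without 6 libraries (15%) and 0 without 2 libraries (6.67%). The count for dHep minus WT under TCDD was 0 with all libraries (1.94% of all genes). It was 1 without 6 libraries (3.65%) and 1 without 2 libraries (2.31%). The counts of the other 7 comparisons stayed at 0 in every alternative run. Signs of single values moved more. Of the 90 values (10 genes in 9 comparisons), 55 changed sign when some single library of the compared groups was left out, and 41 under some other alternative. No sign turned under either filter on low counts, and with RLE scaling those that turned were Thy1 0.0094 in the response of dHSC minus WT, Mylk 0.0285 in the dHep minus WT under TCDD; in a fit of only the compared groups those that turned were Mylk 0.0173 in the dHep minus WT under TCDD; with DESeq2 (genes with an adjusted p) those that turned were Mylk 0.0273 in the dHep minus WT under TCDD. The cause was not tested.

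Without the 5 libraries that stand apart, the values that changed sign were, in the dHep response Acta2 2.59, Des 0.84, Cnn1 1.87, Myl9 2.34, Tpm2 0.39, Actg2 3.22, Thy1 0.58, and in the dHSC response Acta2 -0.20, and in the response of dHep minus WT Vim 0.47, Myl9 2.65, Mylk -0.34, and in the response of dHSC minus WT Vim -0.31, and in the dHep minus WT in vehicle Acta2 -3.29, Cnn1 -4.64, Myl9 -2.29, Mylk 0.53, Actg2 -4.55, Thy1 -0.51, and in the dHSC minus WT in vehicle Thy1 -0.45, and in the dHep minus WT under TCDD Des -0.27, Mylk 0.19, Thy1 -0.60, and in the dHSC minus WT under TCDD Acta2 -0.49, Des -0.64, Myl9 -0.31, Thy1 -0.99. Without 6 libraries (those 5 and WT vehicle replicate 1), the values that changed sign were, in the WT response Acta2 0.20, Des 0.83, Myl9 0.91, and in the dHep response Acta2 2.59, Des 0.84, Cnn1 1.88, Myl9 2.34, Tpm2 0.39, Actg2 3.23, Thy1 0.58, and in the dHSC response Acta2 -0.20, and in the response of dHep minus WT Myl9 1.43, Mylk -0.40, and in the response of dHSC minus WT Acta2 -0.40, Des -0.40, Vim -1.05, Myl9 -0.39, and in the dHep minus WT in vehicle Acta2 -1.84, Cnn1 -2.08, Myl9 -1.07, Mylk 0.59, Actg2 -2.74, and in the dHSC minus WT in vehicle Vim 0.20, Cnn1 0.69, Myl9 0.0709, and in the dHep minus WT under TCDD Des -0.27, Mylk 0.19, Thy1 -0.60, and in the dHSC minus WT under TCDD Acta2 -0.49, Des -0.64, Myl9 -0.32, Thy1 -0.99. Without 2 libraries (WT vehicle replicate 1 and dHep vehicle replicate 9), the values that changed sign were, in the WT response Acta2 0.19, Des 0.81, Myl9 0.90, and in the dHep response Acta2 1.90, Des 0.33, Cnn1 2.03, Myl9 1.38, Tpm2 0.51, Actg2 2.29, Thy1 0.34, and in the response of dHep minus WT Des -0.49, Myl9 0.48, Mylk -0.0789, and in the response of dHSC minus WT Tagln 0.42, Des -0.17, Vim -0.39, Myl9 -0.0917, and in the dHep minus WT in vehicle Acta2 -0.35, Des 0.90, Cnn1 -0.96, Tpm2 0.16, Mylk 0.0674, Actg2 -0.96, and in the dHSC minus WT in vehicle Des 0.35, Vim 0.25, Cnn1 1.07, Myl9 0.27.

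Over the fits that each left out 1 library of the compared groups, the values with a change of sign ranged as follows. In the WT response, Acta2 -1.74 to 0.19, Tagln -0.88 to 1.04, Des -2.98 to 0.81, Myl9 -0.75 to 0.90, Mylk -0.87 to 0.0468. In the dHep response, Acta2 -1.82 to 1.90, Des -1.91 to 0.32, Cnn1 -3.10 to 2.03, Myl9 -1.33 to 1.38, Tpm2 -0.75 to 0.51, Mylk -0.55 to 0.49, Actg2 -3.17 to 2.29, Thy1 -0.93 to 0.34. In the dHSC response, Acta2 -0.24 to 0.68, Tagln -2.68 to 0.96, Des -0.17 to 1.23, Mylk -0.34 to 0.20, Actg2 -0.97 to 0.0871, Thy1 -0.46 to 1.204. In the response of dHep minus WT, Acta2 -1.197 to 3.15, Des -2.05 to 2.77, Vim -0.81 to 0.46, Cnn1 -0.51 to 5.87, Myl9 -1.68 to 1.69, Mylk -0.23 to 0.82, Actg2 -1.14 to 5.27. In the response of dHSC minus WT, Tagln -2.29 to 1.35, Des -0.17 to 3.67, Vim -0.40 to 0.61, Myl9 -0.0986 to 1.54, Mylk -0.14 to 0.78, Thy1 -1.12 to 0.54. In the dHep minus WT in vehicle, Acta2 -1.79 to 2.55, Des -2.36 to 2.46, Vim -0.75 to 0.52, Cnn1 -3.51 to 2.87, Myl9 -0.92 to 2.45, Tpm2 -3.61 to 0.93, Mylk -0.82 to 0.0114, Actg2 -2.76 to 3.65. In the dHSC minus WT in vehicle, Des -3.50 to 0.35, Vim -0.77 to 0.24, Cnn1 -2.05 to 1.07, Myl9 -1.38 to 0.27, Thy1 -0.44 to 1.08. In the dHep minus WT under TCDD, Des -0.26 to 0.75, Mylk -0.45 to 0.53, Thy1 -0.59 to 0.47. In the dHSC minus WT under TCDD, Acta2 -0.49 to 0.64, Tagln -0.79 to 1.98, Des -0.63 to 0.52, Vim -0.85 to 0.11, Myl9 -0.31 to 0.42, Actg2 -0.20 to 1.78, Thy1 -0.99 to 0.44. Leaving out WT vehicle replicate 1 turned 18 of these signs, dHep vehicle replicate 9 turned 15, dHSC TCDD replicate 18 turned 10, and no other library more than 6.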

Other observations

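The 11 genes of quiescent stellate cells summed to 376 to 432 CPM in WT vehicle and 336 to 526 CPM in WT TCDD livers, and 0 of 10 tested were called by edgeR's test, where 5.38% of all genes were, with a median log2 difference of 0.10. Lrat, the enzyme that stores vitamin A in these cells, had no counts in any library, which in these files need not mean that it is not expressed. Of the 6 cholangiocyte genes, all tested, Epcam and Spp1 were called higher in WT TCDD livers, where 3.43% of all genes were called higher. The list summed to 178 to 250 CPM there against 48.6 to 65.0 CPM with vehicle. Most of that sum was Spp1, which the scar list also holds, and without it the list summed to 22.2 to 26.1 CPM against 8.32 to 15.8 CPM. Endothelial genes moved both ways in the same comparison, with Vwf called higher and Lyve1 lower of 7 tested. Over all genes 3.43% were called higher and 1.95% lower.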
